A study of Mus musculus with 6 samples.

Results

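The mitochondrial ribosomal protein genes were taken as every gene whose name on the array starts with Mrpl or Mrps followed by a digit. The rule gave 76 genes, 47 named for the large subunit (Mrpl) and 29 for the small subunit (Mrps), of 34964 names on the array, and it used no measured value. They were read by 133 spots of 106 probes. All 76 genes passed the filter on dim probes, which left 18228 names in all, and no member was below background in either group or saturated on an array.

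Mitochondria keep a small genome of their own, which encodes core subunits of the respiratory chain, and they translate its messages on a separate ribosome. The proteins of that ribosome are encoded in the nucleus, made in the cytosol and imported. Its large subunit carries the peptidyl transferase centre and the exit tunnel, and its small subunit carries the decoding centre. Some of its proteins have a counterpart in the bacterial ribosome and others arose in mitochondria. Erythroid precursors use mitochondria for heme synthesis and lose them as they mature into red cells.

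The cells were erythroid progenitors isolated from mouse fetal liver at embryonic stage E-14.5. Retrovirus was used to give them a short hairpin RNA against Exosc8 (shExosc8) or against luciferase (shControl), a gene that mouse cells lack, and RNA was taken after 3 days. Both groups were grown with dexamethasone, erythropoietin and medium conditioned by cells that make kit ligand, and the series describes red cell maturation during that culture. Each group had 3 arrays. No label tells whether a group's replicates are separate animals or cultures, and the p-values thus cover a spread between samples that may be technical. No source used here says whether infected cells were selected. These are bulk samples, in which fewer cells of a type and less RNA per cell cannot be told apart. All 6 arrays lay on 1 slide, with shExosc8 in row 2 and shControl in row 1, and the effect of slide row and that of group cannot be told apart.

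Exosc8 encodes a core subunit of the RNA exosome, which degrades and trims RNA from its 3' end. Its signal read 40.4, 40.0 and 57.4% of the control mean on shExosc8 replicates 1, 2 and 3, and 98.5, 97.8 and 104% on shControl replicates 1, 2 and 3. The groups did not overlap, and replicate 3 kept the most Exosc8 signal of the shExosc8 arrays. The log2 fold change was -1.14 ± 0.16 (SE, n = 3 arrays per group; limma, adjusted p = 0.00554). Between 25580 and 39936 of 59305 spots per array were well above background, the most on shControl replicate 2.

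The promoters of these genes are known to carry sites for NRF1, for ETS factors such as GABP (also called NRF2) and for YY1. RefSeq promoter windows of 300 bases (250 before and 50 after the annotated start, GRCm38.p6) were found for 67 of the 76 members. The NRF1 word GCATGCGC stood in 8 of the 67 windows (11.9%), against 3.94% of 17492 coding genes. The ETS word CCGGAAG stood in 24 (35.8%, against 12.9%), and the YY1 word AAGATGGCG in 8 (11.9%, against 2.14%). Words were searched on both strands. The NRF1 word and its complement share 6 letters and can overlap in a run of 10 bases. At least 1 of these 3 words stood in 34 member windows (50.7%), against 17.6% of coding genes. The E-box word CACGTG stood in 5 members (7.46%, against 8.91%) and the GC box word GGGCGG in 33 (49.3%, against 49.2%). Member windows had a median GC content of 58% and 21 CG pairs, against 56.33% and 13 over all coding genes, so base composition differed as well. A match describes letters in a window and is no evidence of binding.

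Promoter stretches of 5 genes are shown because they span the word content of members whose values follow. Each is the 120 bases before the annotated start in GRCm38.p6, read 5′ to 3′ on the gene's strand, with NRF1, ETS and YY1 words in capitals. The Mrpl32 stretch (chr13:14613038-14613157 on the minus strand) holds NRF1 words, 2 of them overlapping. The Mrps27 stretch (chr13:99344666-99344785 on the plus strand) holds an ETS word on the opposite strand. The Mrpl36 stretch (chr13:73330889-73331008 on the plus strand) holds a YY1 word on the opposite strand. The Mrpl22 stretch (chr11:58171544-58171663 on the plus strand) holds an ETS and an NRF1 word. The Mrps15 stretch (chr4:126046808-126046927 on the plus strand) holds none of the 3 words.
Mrpl32: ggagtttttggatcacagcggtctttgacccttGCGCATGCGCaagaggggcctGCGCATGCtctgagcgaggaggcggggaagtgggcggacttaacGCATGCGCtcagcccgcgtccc
Mrps27: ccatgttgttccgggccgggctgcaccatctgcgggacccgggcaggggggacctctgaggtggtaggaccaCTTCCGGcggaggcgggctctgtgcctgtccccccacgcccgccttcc
Mrpl36: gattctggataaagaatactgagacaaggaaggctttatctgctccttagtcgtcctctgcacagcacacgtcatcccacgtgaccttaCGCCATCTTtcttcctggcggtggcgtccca
Mrpl22: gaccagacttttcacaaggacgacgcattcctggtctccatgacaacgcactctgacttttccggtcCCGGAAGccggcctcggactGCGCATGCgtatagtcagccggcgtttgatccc
Mrps15: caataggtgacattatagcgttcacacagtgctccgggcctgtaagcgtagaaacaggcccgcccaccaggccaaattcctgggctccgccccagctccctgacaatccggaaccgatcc

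The members were a little lower in shExosc8 almost throughout. Of the 76 genes, 73 had a log2 fold change (shExosc8 over shControl, relative to the 75th percentile of each array) below 0, and the median was -0.26, which is 83.4% of the control level. Over all 18228 names, 55.1% were below 0 and the median was -0.06. The alternatives changed the scaling, background, filter, probe choice, arrays used or blocks. Across them the members' median stayed -0.14 to -0.31 relative to that of all names on the log2 scale. The -0.31 is from the fit without shExosc8 replicate 3 and shControl replicate 2. In 49 members (64.5%) all 3 shExosc8 arrays read below all 3 shControl arrays, which held for 28.4% of all names.

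Single members passed the test less readily. At a Benjamini-Hochberg adjusted p under 0.05 in limma, 14 of 76 fell (18.4%), 0 rose and 62 did not pass. Of all names, 13.8% fell and 16.0% rose, so the share of members that fell lay near the background and the share that rose lay below it. At an unadjusted p under 0.05 in limma, 34 of 76 members were lower and 0 higher, against 4299 and 3909 of all 18228 names. The count of 14 moved with every array left out. Dropping shExosc8 replicates 1, 2 and 3 in turn gave 2, 3 and 38, while 3.81, 6.25 and 23.5% of all names fell in those fits. All 14 kept their call without replicate 3. Dropping shControl replicates 1, 2 and 3 gave 0, 3 and 2, against 3.99, 5.04 and 5.31% of all names. Leaving out shExosc8 replicate 3 and shControl replicate 2 together gave 26 (34.2%, against 17.3% of all names). Scaling moved the balance over all names. Of the called names 53.7% were higher here, 37.1% with the percentile taken over all probes, 66.9% after normexp background correction and 18.0% without scaling between arrays, and the members that fell then numbered 33, 10 and 58. That is 43.4, 13.2 and 76.3% of members, against 24.6, 8.79 and 41.2% of all names called lower in the same fits.

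Among the 47 large subunit genes, 7 fell and 0 rose (limma, adjusted p under 0.05), 46 were below 0 and the median was -0.28. The 7 that fell are 14.9%, near the 13.8% of all names. In 31 of the 47 (66.0%) all shExosc8 arrays read below all shControl arrays, against 28.4% of all names. Values per array are given as percent of the mean of the 3 shControl arrays, in the order of replicates 1, 2 and 3, probe positions are on mm9, and SEs are for n = 3 arrays per group. Mrpl36 is a small zinc-binding protein with a bacterial counterpart (probe at chr13:73469515-73469574). Mrpl36 read 67.0, 59.4 and 83.8% of the control mean on the shExosc8 arrays and 97.4, 95.6 and 107% on the shControl arrays. The groups did not overlap, and the log2 fold change was -0.53 ± 0.15 (SE; limma, adjusted p = 0.0438). Mrpl12, which forms part of the stalk that recruits translation factors and also binds the mitochondrial RNA polymerase, was probed at chr11:120349740-120349799. For Mrpl12 the shExosc8 arrays stood at 67.7, 67.2 and 85.4% and the shControl arrays at 99.9, 96.5 and 104%. Replicate 3 was again the highest of the knockdown arrays and still below every control, with a log2 fold change of -0.46 ± 0.13 (limma, adjusted p = 0.0417).

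Mrpl32, Mrpl13, Mrpl4 and Mrpl11 also have bacterial counterparts. In Mrpl32, Mrpl13 and Mrpl4 replicate 3 was the lowest knockdown array, unlike in Mrpl36 and Mrpl12. Mrpl32 is trimmed by a protease of the inner membrane before it joins the ribosome (probe at chr13:14702894-14702953; its promoter stretch with the overlapping NRF1 words is shown above). The Mrpl32 signal was 76.2, 78.2 and 70.1% of the control mean after Exosc8 knockdown and 101, 101 and 97.9% in the controls. Here replicate 3 was the lowest array, the groups did not overlap, and the log2 fold change was -0.42 ± 0.10 (limma, adjusted p = 0.0234). Mrpl13 was probed at chr15:55365795-55365854. In Mrpl13 the values were 80.4, 75.9 and 74.1% for shExosc8 and 101, 98.2 and 100.5% for shControl. All 3 knockdown arrays lay close together below the controls, and the log2 fold change was -0.38 ± 0.09 (limma, adjusted p = 0.0278). Mrpl4 lies beside the exit tunnel (probe at chr9:20813220-20813279). For Mrpl4 the shExosc8 arrays stood at 82.0, 77.9 and 72.8% and the shControl arrays at 104, 99.8 and 96.5%. Replicate 3 was lowest, and the log2 fold change was -0.37 ± 0.10 (limma, adjusted p = 0.0368). Mrpl11 belongs to the base of the stalk (probe at chr19:4964880-4964939). Mrpl11 read 76.2, 78.4 and 78.7% of the control mean on the shExosc8 arrays and 104, 96.0 and 99.9% on the shControl arrays. The knockdown arrays differed little from one another, with a log2 fold change of -0.36 ± 0.09 (limma, adjusted p = 0.0318).

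Of the 17 large subunit proteins that arose in mitochondria, only Mrpl44 fell, and all 17 were below 0 with a median of -0.28, close to that of the 30 with a bacterial counterpart, of which 6 fell. Mrpl44 has a ribonuclease III fold and is needed for a stable large subunit (probe at chr1:79777892-79777951). The Mrpl44 signal was 72.6, 64.9 and 84.2% of the control mean after Exosc8 knockdown and 104, 92.4 and 104% in the controls. The groups did not overlap, and the log2 fold change was -0.44 ± 0.13 (limma, adjusted p = 0.0478).

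The largest difference in the large subunit belonged to a gene that did not pass the test. Mrpl38, a mitochondria-specific protein of the central protuberance, was probed at chr11:115993268-115993327. Mrpl38 read 63.8, 49.5 and 96.9% of the control mean on the shExosc8 arrays and 101, 96.7 and 102% on the shControl arrays. Replicates 1 and 2 were far below the controls while replicate 3 lay among them, and the log2 fold change of -0.57 ± 0.24 had an adjusted p of 0.118 in limma. Without replicate 3 it was -0.83 (limma, adjusted p = 0.00768). Mrpl35 and Mrpl19, which have bacterial counterparts, followed (probes at chr6:71765277-71765336 and chr6:81911970-81912029). For Mrpl35 the shExosc8 arrays stood at 67.1, 57.6 and 83.7% and the shControl arrays at 88.4, 106 and 107%. In Mrpl19 the values were 70.3, 57.8 and 85.5% for shExosc8 and 93.3, 98.4 and 109% for shControl. In both the groups did not overlap, with log2 fold changes of -0.54 ± 0.17 and -0.51 ± 0.17 (limma, adjusted p = 0.053 and 0.0605), and without replicate 3 both passed the test (adjusted p = 0.0133 and 0.0144). Mrpl33, named after its values were seen, was the only large subunit gene above 0. The Mrpl33 signal was 103, 108 and 106% of the control mean after Exosc8 knockdown and 103, 92.4 and 105% in the controls. The groups overlapped, and the log2 fold change was 0.08 ± 0.10 (limma, adjusted p = 0.575).

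**Figure D1:**
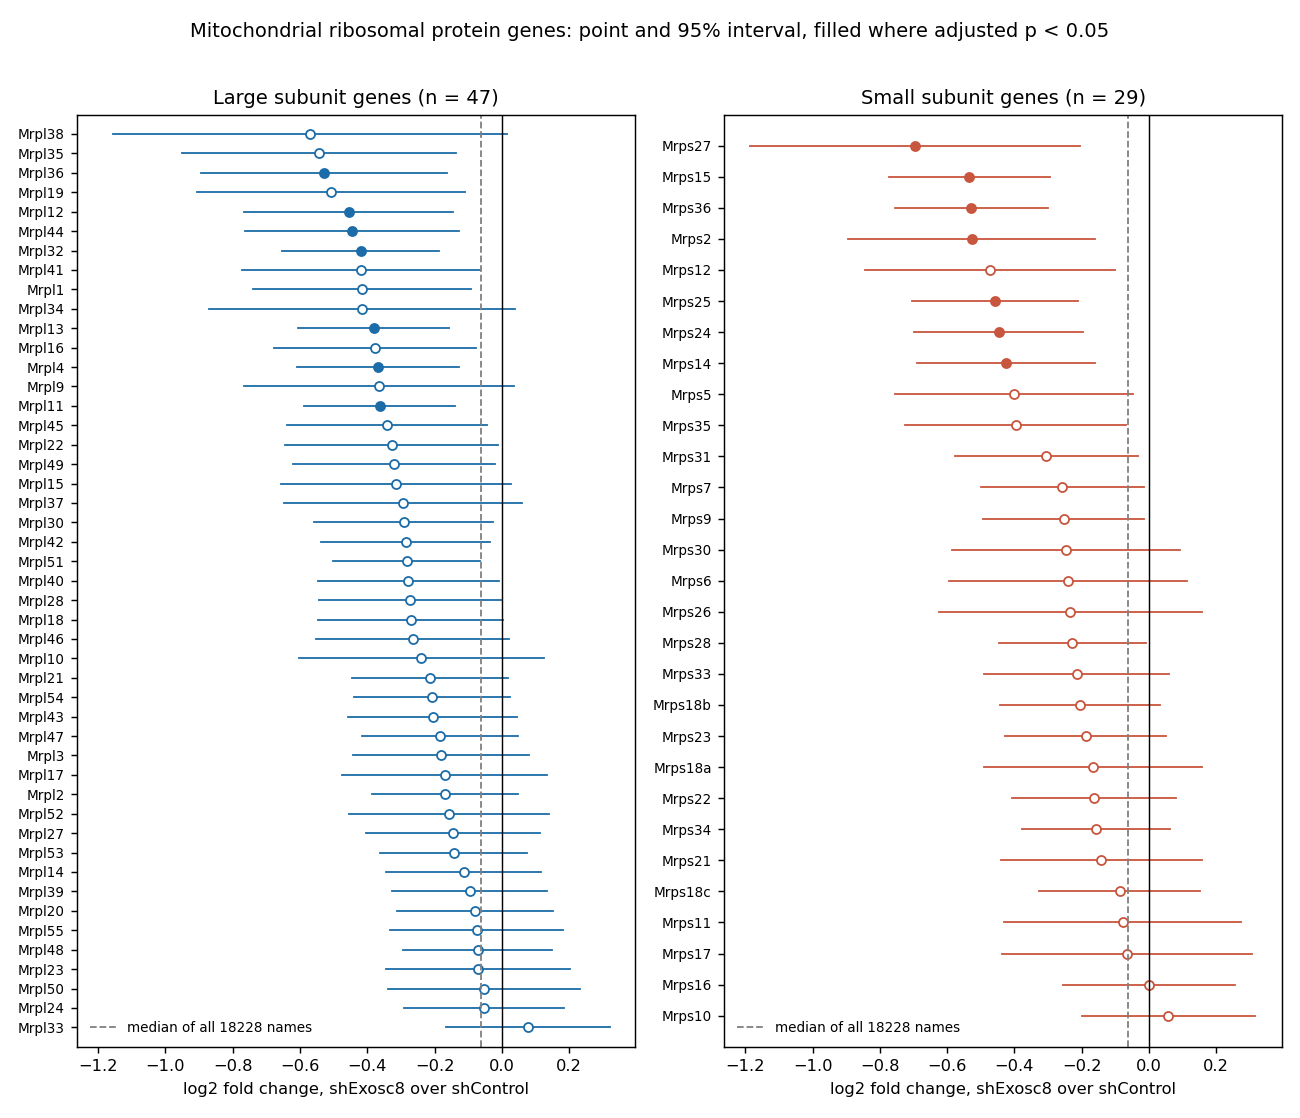
Log2 fold change (x axis, shExosc8 over shControl) of each of the 47 large and 29 small subunit genes, with 95% intervals from the limma fit, filled where the adjusted p was under 0.05, and the median of all 18228 names dashed. All points but Mrpl33, Mrps16 and Mrps10 lie below 0, and 7 points in each panel are filled.

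Among the 29 small subunit genes, 7 fell and 0 rose (limma, adjusted p under 0.05), 27 were below 0 and the median was -0.24. The 7 that fell are 24.1%, against 13.8% of all names. In 18 of the 29 (62.1%) all shExosc8 arrays read below all shControl arrays, against 28.4% of all names. Mrps27, a mitochondria-specific protein with pentatricopeptide repeats, had the largest difference of all members (probe at chr13:100185032-100185091). Mrps27 read 58.8, 49.2 and 81.3% of the control mean on the shExosc8 arrays and 102, 88.9 and 110.4% on the shControl arrays. Replicate 3 was the highest of the knockdown arrays and the groups did not overlap. The log2 fold change was -0.70 ± 0.20 (limma, adjusted p = 0.0461), and -0.89 without replicate 3. Mrps2 (probe at chr2:28326283-28326342), with a bacterial counterpart, had the same order of arrays. For Mrps2 the shExosc8 arrays stood at 67.1, 59.1 and 84.1% and the shControl arrays at 98.5, 95.9 and 106%. Its log2 fold change was -0.53 ± 0.15 (limma, adjusted p = 0.044).

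Mrps15, which binds the small subunit RNA early in assembly in bacteria, was lower by about the same amount on all 3 knockdown arrays (probe at chr4:125728625-125730774). The Mrps15 signal was 74.0, 65.9 and 67.5% of the control mean after Exosc8 knockdown and 103, 98.9 and 97.8% in the controls. The log2 fold change was -0.53 ± 0.10 (limma, adjusted p = 0.0122), and its promoter stretch, shown above, held none of the 3 words. Mrps15 and Mrps36 were the only 2 of the 14 genes that kept their call in 5 of the 6 fits that left out 1 array. Mrpl32 and Mrps25 kept it in 2 and the other 10 in 1. Mrps25, a mitochondria-specific protein, was probed at chr6:92124834-92124893. In Mrps25 the values were 70.3, 71.8 and 76.4% for shExosc8 and 101, 93.3 and 106% for shControl. Mrps24, the counterpart of bacterial S3 at the entry of the messenger channel, was probed at chr11:5604421-5604480. For Mrps24 the shExosc8 arrays stood at 74.8, 67.7 and 78.1% and the shControl arrays at 101, 95.7 and 103%. In both genes every knockdown array lay below every control, with log2 fold changes of -0.46 ± 0.10 and -0.45 ± 0.10 (limma, adjusted p = 0.0212 and 0.0241). Mrps14, the seventh gene that fell, had a log2 fold change of -0.42 ± 0.11 (limma, adjusted p = 0.0326).

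Mrps12, Mrps5 and Mrps35 had the largest differences in the small subunit that did not pass the test. Mrps12 is the counterpart of the bacterial protein at the decoding centre (probe at chr7:29524837-29524896). Mrps12 read 68.4, 61.8 and 88.4% of the control mean on the shExosc8 arrays and 96.3, 98.6 and 105% on the shControl arrays. For Mrps5 the shExosc8 arrays stood at 74.0, 65.3 and 89.8% and the shControl arrays at 96.9, 94.7 and 109%. In Mrps35 the values were 74.2, 66.0 and 89.5% for shExosc8 and 99.2, 97.6 and 103% for shControl. In all 3 genes replicate 3 was the highest knockdown array and the groups did not overlap. The log2 fold changes were -0.47 ± 0.15, -0.40 ± 0.15 and -0.40 ± 0.14 (limma, adjusted p = 0.061, 0.0819 and 0.0697), and all 3 passed the test without replicate 3. Mrps10 and Mrps16, named after their values were seen, were the small subunit genes not below 0. The Mrps10 signal was 101, 113 and 99.1% of the control mean after Exosc8 knockdown and 94.7, 100.5 and 105% in the controls. In Mrps16 the values were 102, 103 and 94.4% for shExosc8 and 102, 92.4 and 106% for shControl. Both overlapped with the controls, with log2 fold changes of 0.06 ± 0.11 and 0.00 ± 0.11 (limma, adjusted p = 0.696 and 0.999).

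The names of 3 Mrps genes do not match the place of their proteins. Structures place Mrps30 and Mrps18a in the large subunit, and Mrps36 was later assigned to the 2-oxoglutarate dehydrogenase complex of the citric acid cycle. Mrps36 read 71.7, 67.2 and 69.1% of the control mean on the shExosc8 arrays and 104, 96.2 and 100.2% on the shControl arrays. The groups did not overlap, the knockdown arrays lay within a few percent of one another, and the log2 fold change of -0.53 ± 0.09 had the smallest p of all members (probe at chr13:101506215-101509014; limma, adjusted p = 0.0109). For Mrps30 the shExosc8 arrays stood at 83.2, 72.2 and 99.6% and the shControl arrays at 104, 97.6 and 98.2%. The Mrps18a signal was 86.0, 78.1 and 105% of the control mean after Exosc8 knockdown and 101, 97.7 and 102% in the controls. In both genes replicates 1 and 2 were below the controls and replicate 3 was not, and neither passed the test (log2 fold changes of -0.25 ± 0.14 and -0.17 ± 0.13; limma, adjusted p = 0.216 and 0.369). With Mrps30 and Mrps18a moved and Mrps36 left out, 7 of 49 large and 6 of 26 small subunit genes fell, with medians of -0.27 and -0.24.

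The subunits differed little. The median of the large subunit minus that of the small subunit was -0.04 on the log2 scale, a difference that was not tested. The order turned under 4 of the alternatives, both that used normexp among them. Within the large subunit 20.0% of genes with a bacterial counterpart fell and 5.88% of those without. Within the small subunit 4 of 16 genes with a bacterial counterpart fell (median -0.25), and 2 of 10 without (median -0.22). These shares rest on 1 to 6 fallen genes each, and all 4 medians lay between -0.22 and -0.28.

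**Figure D2:**
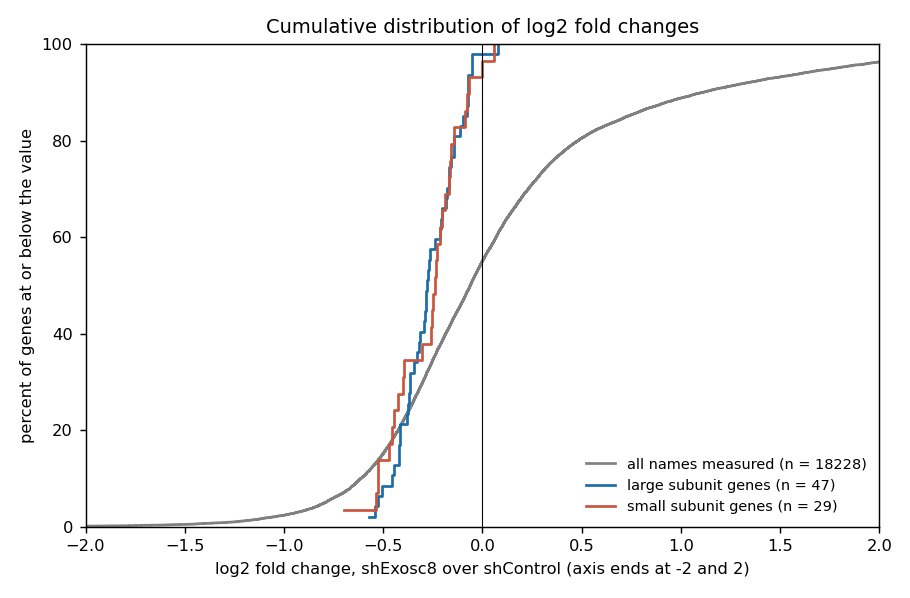
Percent of genes (y axis) with a log2 fold change at or below the value on the x axis, for the 47 large subunit genes, the 29 small subunit genes and all 18228 names measured. Both subunits rise steeply between -0.57 or -0.70 and 0.08 or 0.06, while the curve of all names is far wider.

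The array pattern was shared by most members. Replicate 3 was the highest of the 3 shExosc8 arrays in 54 of 76 members (71.1%, against 37.5% of all names) and replicate 2 the lowest in 43 (56.6%, against 31.2%). Among the controls, shControl replicate 2 was the lowest in 49 of 76 members, against 4540 of 18228 names. Before scaling, shExosc8 replicate 2 was the dimmest array. Its 75th percentile was 11.70 on the log2 scale, against 12.27 to 12.61 on the others, and the part of this in the pattern was not tested. Member medians relative to the control mean were -0.29, -0.33 and -0.15 on shExosc8 replicates 1, 2 and 3, and 0.02, -0.05 and 0.03 on the shControl arrays. For all names the shExosc8 medians were -0.06, -0.01 and -0.07. On replicates 1, 2 and 3, 71, 69 and 53 of the 76 members read below the lowest control array (93.4, 90.8 and 69.7%), against 45.0, 42.3 and 43.3% of all names. Exosc8 itself kept its highest knockdown signal on replicate 3 (57.4% of control), and the part of this in the pattern was not tested. Replicate 3 was highest in 34 of 47 large and 20 of 29 small subunit genes (72.3 and 69.0%). Replicate 2 was lowest in 22 and 21 (46.8 and 72.4%), a difference between the subunits that was not tested.

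**Figure D3:**
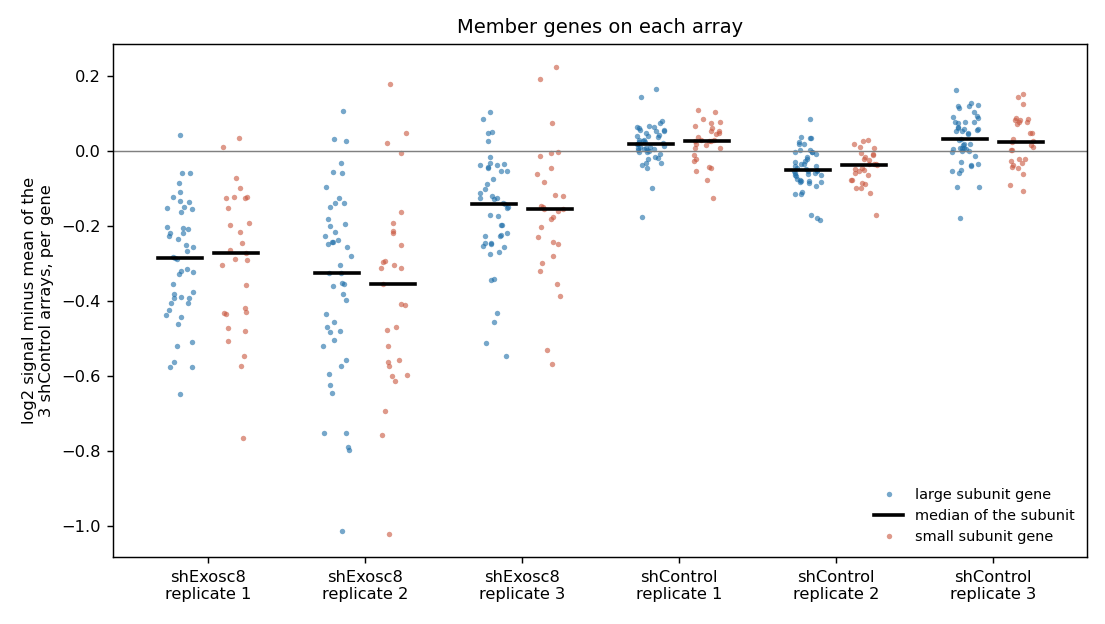
Log2 signal of each member minus its mean over the 3 shControl arrays (y axis) on each of the 6 arrays (x axis), large subunit genes in blue and small subunit genes in red, bars at the median of each. The medians of replicates 1 and 2 of shExosc8 lie lowest, those of replicate 3 lie between them and the controls, and the control arrays scatter around 0.

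Both groups had an array in columns 2 and 3 of the slide, and the difference was unequal between these columns. In column 2 (shExosc8 replicate 2 against shControl replicate 1) the member median was -0.37 and 72 of 76 members were lower, while the median of all names was 0.02. In column 3 (shExosc8 replicate 3 against shControl replicate 2) the member median was -0.11 and 56 of 76 were lower, with all names at -0.09. Of all 18228 names, 8885 were lower in column 2 and 10686 in column 3. By the medians relative to all names, the members were thus lower in column 2 and hardly so in column 3. Each of these columns held 1 array per group, so an effect of the column and one of the single arrays cannot be told apart. A fit with slide column as a block had 1 residual degree of freedom, and in it 0 members passed the test, and 0.225% of all names were called lower. The medians in that fit were -0.24 for the large and -0.26 for the small subunit.

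Each of the 105 member probes that passed the filter was also tested on its own. Of these, 20 fell (19.0%, against 13.1% of all 24836 probes), 0 rose and 101 were below 0. In 26 genes with several probes, the calls differed in 7 and the signs in 1, and in 15 the brightest probe, which stands for the gene elsewhere, was not the one with the lowest fold change. Mrpl50 was the widest case among genes with 2 probes. Its brightest probe, spotted 10 times (chr4:49525602-49525661), read 90.9, 91.6 and 107% of the control mean on the shExosc8 arrays and 97.8, 94.4 and 108% on the controls. A probe 1487 bases away (chr4:49527089-49527148) read 66.9, 62.0 and 59.0% and 104, 95.9 and 101%. The first overlapped between groups with a log2 fold change of -0.05, and the second did not, at -0.68 (limma over probes, adjusted p = 0.754 and 0.0072).

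In Mrps7, the counterpart of a bacterial protein that nucleates the head of the small subunit, adjoining probes on mm9 whose starts lie 59 bases apart gave -0.26 and -0.81 (limma over probes, adjusted p = 0.106 and 0.0295). The brighter (chr11:115468609-115468668) read 81.7, 84.0 and 85.3% on shExosc8 and 107, 99.2 and 93.8% on shControl, and the dimmer (chr11:115468668-115468727) read 57.2, 44.2 and 74.2% and 98.0, 95.4 and 107%. Neither overlapped between groups. The 4 probes of Mrpl47 ranged from -0.93 to -0.18, and 2 of them fell, though not the brightest. The lowest of the 4, at -0.93, was above background on 4 of the 6 arrays. In Mrps36 the probe that stands for the gene gave -0.53 and a probe 299 bases away -0.19 (limma over probes, adjusted p = 0.249), so the call of Mrps36 rests on 1 probe. The calls of Mrpl4 and Mrps2 rest on 1 probe as well. Their other probes gave -0.41 and -0.42 and did not pass (limma over probes, adjusted p = 0.119 and 0.0865). Mrpl22, whose promoter stretch is shown above, gave -0.33 (adjusted p = 0.11) and -0.55 (adjusted p = 0.0478). Mrpl49 was the gene whose signs differed, at -0.32 and 0.08, with neither probe called (limma, adjusted p = 0.102 and 0.555). The 2 probes of Mrpl30 are placed on different chromosomes in the files, chr1 and chr11, which was not resolved here. With the mean of all probes of a gene, 16 members fell (21.1%, against 14.4% of all names), and 12 of the 14 kept their call.

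**Figure D4:**
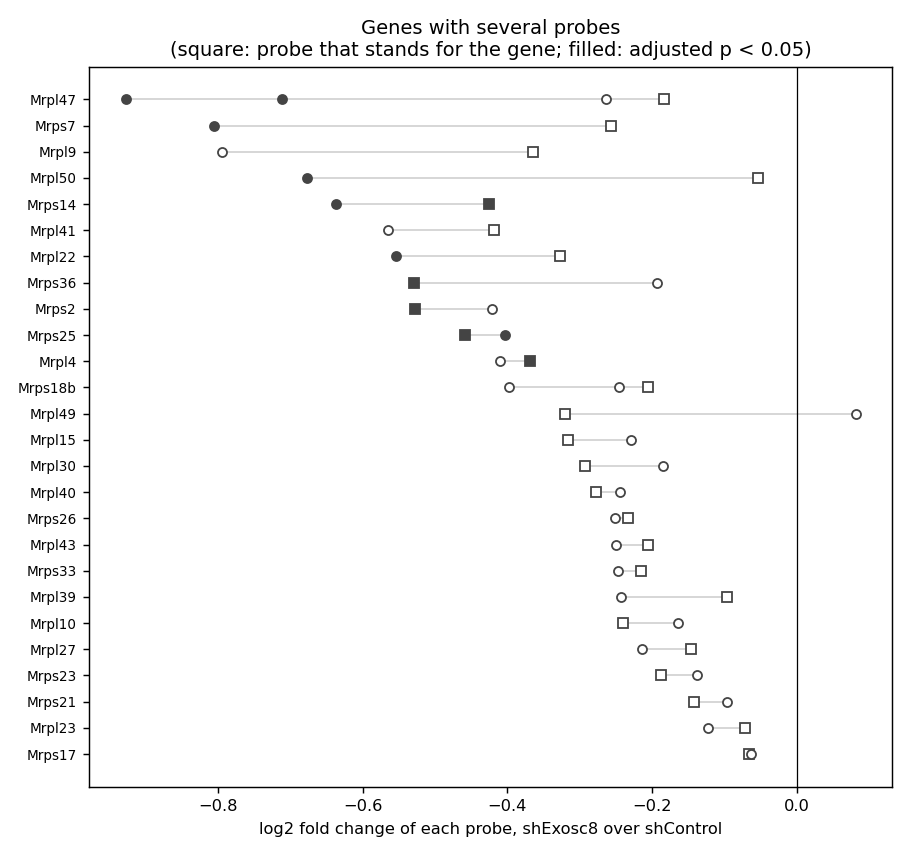
Log2 fold change (x axis) of every probe of the 26 members with several probes, squares for the probe that stands for the gene and filled symbols where the adjusted p over all probes was under 0.05. Mrpl47, Mrps7 and Mrpl50 spread widest, and only the second probe of Mrpl49 lies above 0.

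Dimmer members had lower fold changes than brighter ones. Across the 76 members the log2 fold change correlated with mean signal at Pearson r = 0.395 and Spearman rho = 0.338, a description over genes that share the same 6 arrays. Over all names the values were -0.095 and -0.065. The 62 members brighter than the arrays' 75th percentile had a median of -0.24 and the 14 dimmer ones -0.41.

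Promoter words and fold changes were set side by side with no test. The 24 members with the ETS word had a median of -0.18 and the members without it -0.29. With and without the NRF1 word the medians were -0.22 and -0.26, and with and without the YY1 word -0.37 and -0.24. Of the 12 members that fell and have a window, 1 held the NRF1 word (Mrpl32), 1 the ETS word (Mrps27), 3 the YY1 word and 5 the GC box.

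Other genes of mitochondrial gene expression were lower as well. In 6 lists with 106 measured genes, 26 fell and 3 rose (limma, adjusted p under 0.05), 94 were below 0 and the median was -0.34, against 13.8% fallen, 16.0% risen and a median of -0.06 over all names. Of 7 mitoribosomal proteins that carry other symbols on the array, 1 fell, Chchd1, 5 were below 0 and the median was -0.23. Chchd1 read 74.0, 73.1 and 71.5% of the control mean on the shExosc8 arrays and 92.1, 101 and 108% on the shControl arrays. The groups did not overlap (log2 fold change -0.46 ± 0.10; limma, adjusted p = 0.0221). For Ptcd3 the shExosc8 arrays stood at 79.6, 69.5 and 87.6% and the shControl arrays at 105, 93.5 and 102%. In Gadd45gip1 the values were 81.0, 74.1 and 88.5% for shExosc8 and 104, 98.9 and 97.7% for shControl. In both every knockdown array lay below every control. Their log2 fold changes were -0.35 and -0.30, which did not pass (limma, adjusted p = 0.0759 and 0.0762). Mrpl57 and Mrpl58, which are RefSeq symbols of genes named otherwise on the array, stood at 0.03 and -0.0001. Aurkaip1 was the highest of the list at 0.19.

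All 15 translation factors of mitochondria were below 0 (median -0.32), and 3 fell. These were Mtfmt, which formylates the initiator transfer RNA, Tufm, the elongation factor that brings transfer RNAs to the ribosome, and Oxa1l, which inserts new chains into the inner membrane. For Mtfmt the shExosc8 arrays stood at 65.0, 64.1 and 75.3% and the shControl arrays at 90.7, 97.0 and 114%. The Tufm signal was 78.4, 73.1 and 67.4% of the control mean after Exosc8 knockdown and 99.9, 94.8 and 106% in the controls. In Oxa1l the values were 71.1, 70.7 and 81.6% for shExosc8 and 96.9, 102 and 101% for shControl. None of the 3 overlapped between groups, and their log2 fold changes were -0.56 ± 0.13, -0.46 ± 0.11 and -0.43 ± 0.11 (limma, adjusted p = 0.0246, 0.0247 and 0.028). Tufm was lowest on replicate 3, unlike the other 2.

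Of 29 mitoribosome assembly factors, 7 fell and 0 rose (median -0.30). The 3 with the smallest p were Rpusd4, which makes a pseudouridine in the large ribosomal RNA, Mrm2, a methyltransferase of the same RNA, and Fastkd2, an RNA-binding protein of mitochondrial RNA granules. Rpusd4 read 62.9, 59.9 and 49.6% of the control mean on the shExosc8 arrays and 89.8, 104 and 107% on the shControl arrays. For Mrm2 the shExosc8 arrays stood at 67.0, 60.9 and 49.6% and the shControl arrays at 98.0, 96.0 and 106%. In Fastkd2 the values were 53.6, 42.1 and 58.9% for shExosc8 and 85.3, 118 and 99.7% for shControl. Rpusd4 and Mrm2 read below every control and were lowest on replicate 3. The log2 fold changes of Rpusd4 and Mrm2 were -0.81 ± 0.14 and -0.77 ± 0.14 (limma, adjusted p = 0.00924 and 0.0115). The Fastkd2 probe was not well above background on any shExosc8 array, so its values there are only a bound and their order cannot be read. Fastkd2 was at least 1.54-fold lower in shExosc8. This bound sets the control mean against a floor given per array by the dimmest signal above background or the probe's own. At the bound the gene lies below the list's median too. It passed the filter through the shControl arrays alone. Its adjusted p of 0.0122 (limma) was computed on values below background and is no support for the bound, though the gene is counted in the 7.

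Of 23 genes of mitochondrial RNA synthesis, processing and decay, 6 fell and 0 rose (median -0.35). Polrmt read 58.5, 49.9 and 71.2% of the control mean on the shExosc8 arrays and 94.5, 94.4 and 112% on the shControl arrays. For Trmt10c the shExosc8 arrays stood at 68.9, 66.9 and 73.9% and the shControl arrays at 95.8, 111 and 93.8%. In Pnpt1 the values were 70.1, 67.5 and 78.1% for shExosc8 and 95, 100.1 and 105% for shControl. None of these 3 overlapped between groups, and replicate 3 was the highest knockdown array in each. Polrmt, the mitochondrial RNA polymerase, had a log2 fold change of -0.76 ± 0.16, Trmt10c, a subunit of mitochondrial ribonuclease P, -0.52 ± 0.11, and Pnpt1, an exoribonuclease, -0.48 ± 0.11 (limma, adjusted p = 0.0186, 0.0199 and 0.0214). Of 19 measured mitochondrial aminoacyl-tRNA synthetases and amidotransferase subunits, 7 fell and 1 rose (median -0.40). The Gatc signal was 58.1, 52.0 and 73.3% of the control mean after Exosc8 knockdown and 99.6, 96.6 and 104% in the controls. In Qrsl1 the values were 76.5, 65.3 and 62.7% for shExosc8 and 91.2, 105 and 104% for shControl. Neither overlapped, and replicate 3 was the highest knockdown array in Gatc and the lowest in Qrsl1. Gatc and Qrsl1, subunits of the amidotransferase that makes glutaminyl transfer RNA, fell by 0.72 and 0.56 (limma, adjusted p = 0.0163 and 0.0211). Fars2, which charges phenylalanine transfer RNA, was the one that rose. For Fars2 the shExosc8 arrays stood at 399, 471 and 227% and the shControl arrays at 106, 109 and 87.0%. Every knockdown array lay above every control, least on replicate 3, and the log2 fold change was 1.81 ± 0.28 (limma, adjusted p = 0.00703).

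**Figure D5:**
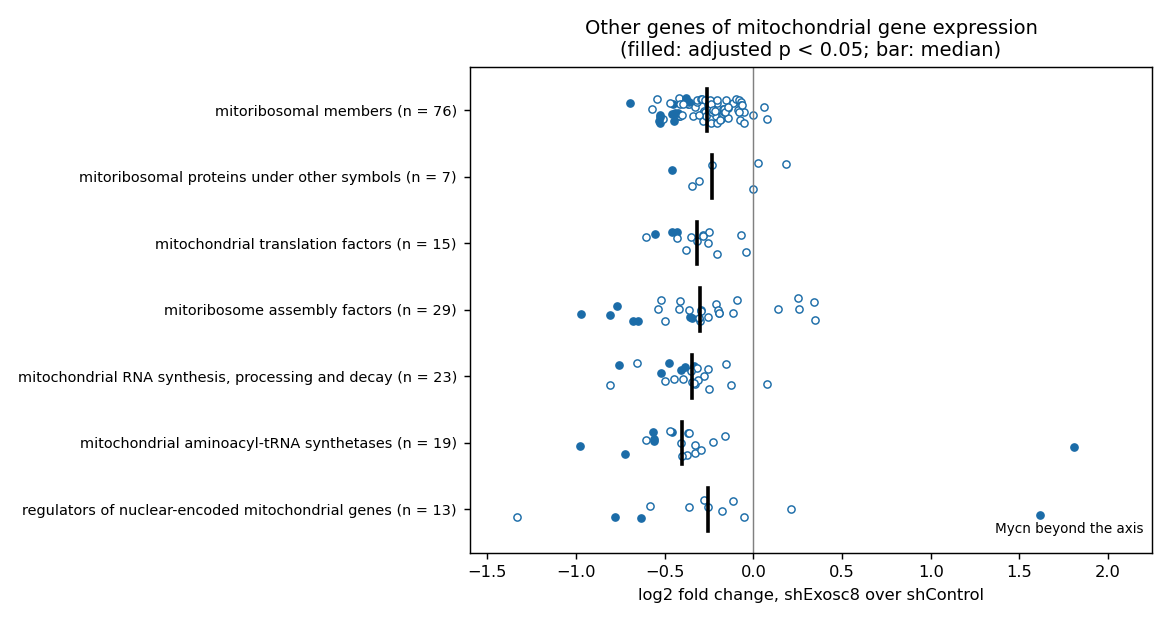
Log2 fold change (x axis) of each member and of each measured gene in 6 further lists (rows), filled where the adjusted p was under 0.05, with a bar at each median. All 7 medians lie below 0, between -0.23 and -0.40, and Fars2, Perm1 and Mycn (6.15, beyond the axis) are the filled points above 0.

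Of 13 measured regulators of nuclear genes for mitochondrial proteins, 10 were below 0, 2 fell and 2 rose (median -0.26). For Esrra the shExosc8 arrays stood at 52.3, 52.3 and 72.2% and the shControl arrays at 94.8, 88.6 and 119%. In Gabpb2 the values were 63.4, 74.5 and 57.0% for shExosc8 and 110.0, 102 and 89.3% for shControl. Neither overlapped between groups. Esrra, a nuclear receptor that activates such genes, and Gabpb2, a partner chain of the ETS factor GABP, fell by 0.78 and 0.63 (limma, adjusted p = 0.0246 and 0.0224). The Mycn signal was 8329, 9097 and 4770.2% of the control mean after Exosc8 knockdown and 66.3, 121 and 125% in the controls. Mycn, a Myc family factor, rose with a log2 fold change of 6.15 ± 0.34 (limma, adjusted p = 0.000355), and Perm1, a muscle regulator of mitochondrial genes, with 1.61 ± 0.47 (limma, adjusted p = 0.0464). Both were well above background on only 1 of the 3 shControl arrays and passed the filter through the shExosc8 arrays alone. The size of these rises, their SEs and their p-values thus rest on dim control values. The count of 2 that rose rests on them too. Of the other factors listed that go with the NRF1, ETS and YY1 words above, none passed the test. Gabpb1, another partner chain of GABP, stood at -0.05 ± 0.16 (limma, adjusted p = 0.817). Gabpa, the DNA-binding chain of GABP, stood at -0.28 ± 0.09, Yy1 at -0.18 ± 0.10 and Nrf1 at -0.12 ± 0.27 (limma, adjusted p = 0.0615, 0.227 and 0.756). In Nrf1 the values were 117, 108 and 62.2% for shExosc8 and 111, 109 and 83.0% for shControl. Its knockdown arrays scattered on both sides of the controls, with replicate 3 lowest.

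Markers of erythroid cells, other blood cells and hepatocytes were set beside the groups. Of all names, 16.0% were called higher. Not every measured marker rose: Csf3r, Marco, Mcpt1, Mcpt2 and Mcpt4 were among those below 0 that did not pass the test. All 11 erythroid markers were above background on every shControl array, 5 were higher and 1 lower in shExosc8 (limma, adjusted p under 0.05), and their summed scaled signal ran from 307 to 363 on the control and from 411 to 646 on the knockdown arrays. Of 15 megakaryocyte markers 14 were higher, with sums of 7.45 to 10.9 and 70.5 to 103. Of 14 neutrophil and monocyte markers 13 were higher, with sums of 23.8 to 27.5 and 58.8 to 74.4. Of 14 macrophage markers 8 were measured and 6 higher, with sums of 0.659 to 0.85 and 2.03 to 2.35, and Vcam1 and Timd4 were above background on no array. Of 12 mast cell and basophil markers 8 were measured and 4 higher, with sums of 1.02 to 1.39 and 2.82 to 4.57, and Tpsab1, Fcer1a and Ms4a2 were above background on no array. Of 14 hepatocyte markers 8 were measured and 4 higher, with sums of 0.472 to 0.558 and 0.747 to 0.977. The part of these cell types in the values of the mitochondrial ribosomal protein genes was not tested.

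In the authors' deposited table of the same comparison, 72 of the 76 members had a log2 fold change below 0, and the median of that table's values was -0.22 for the members and -0.08 for all 59305 spots. Each member was read there by the probe that stands for its gene here, and its other probes were not looked up. At these probes the authors' deposited table gave 0 members an adjusted p under 0.05, with 0.122 as the smallest. Of all its spots, dim ones included, 3.34% had one. The sign was the same in that table as in the limma fit here for 71 of 76 members.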

How the data were processed

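RNA of 6 samples was measured on single-colour mouse arrays. Per the file headers, the deposited intensity of each spot was written by Agilent Feature Extraction 10.7.3.1 after background subtraction, with flags. The deposited table also has the authors' log2 fold changes with their p-values, from limma per the submitters' processing notes. How the authors normalized is not given in the sources used. Another 6 columns of values per sample in the deposited table were not used.

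Control and flagged spots were left out, spots of a probe were averaged as log2 values, and each array's 75th percentile over the 21615 probes above background on all 6 arrays was subtracted. Of 55660 usable probes, 24836 were well above background on every array of at least 1 group and were kept, and the brightest probe stood for each gene. Names came from the files or, for 27509 probes, from a RefSeq table (GRCm38.p6) by accession. This table gave the files' symbol for all 98 member probes it matched. Groups were compared with limma 3.58.1 in R 4.3.3 (two-sided, Benjamini-Hochberg over 18228 names, threshold 0.05), a step checked on simulated data. The number of arrays limits the precision. Positions are those of the files on mm9, without exon annotation. Motif words were searched in RefSeq promoters.

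Members and lists were chosen with earlier results of these data known. Values per array were given for up to 6 fallen and 3 largest uncalled genes per subunit, for 3 oddly named genes, Exosc8 and the 3 smallest p of each list. Probe cases, the regulators of the promoter words, Perm1 and genes not below 0 were named after their values were seen, and Mrpl57 was added to its list then. Alternatives covered scaling, background, filter, probe choice, single arrays, and blocks for replicate number and slide column.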

Additional observations from a re-analysis of the deposited data

How the results depend on the processing

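Every alternative left 0 members called higher and both subunit medians below 0. Exosc8 and the members named by size or by place in the ribosome kept their direction in all 17. Near 0 the sign turned: of 18 fits, Mrpl33 was below 0 in 4, Mrps10 in 5, Mrps16 in 7 and Mrpl50 in 16. The count of 14 members that fell moved most. It was 33 (19 large and 14 small subunit genes) with the percentile over all probes, 58 (35 and 23) without scaling between arrays, 26 (15 and 11) when shExosc8 replicate 3 and shControl replicate 2 were both left out, and 0 (0 and 0) both with no filter on dim probes and with slide column as a block. Of all names, 24.6, 41.2, 17.3, 1.05 and 0.225% were called lower in these fits. Leaving out single arrays gave 0 to 38 members, 0 to 25 large and 0 to 13 small subunit genes, against 3.81 to 23.5% of all names. With median centring 11 large subunit genes fell, and with normexp, followed by the percentile or by quantile normalization, 4 small subunit genes fell in each. Of all names, 17.7% were called lower with median centring, and 8.79 and 14.1% with normexp. The large subunit median was -0.42 with the percentile over all probes, and without scaling the medians were -0.78 for the large and -0.74 for the small subunit. These scalings shift all names, whose median was -0.21 with the percentile over all probes and -0.56 without scaling. Exosc8 was at -1.03 with slide column as a block (limma, adjusted p = 0.124), a fit with 1 residual degree of freedom. The cause of the other changes was not tested.

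Replicate numbers are shared between groups. Same-numbered samples deviated together at r = 0.036, 0.219 and 0.303, and 4 of 6 samples correlated best with their own number. These values do not settle whether the samples are pairs. The main fit had no pairs because no source used here states a block. With the replicate number as a block, 12 members fell (15.8%, against 13.5% of all names), 6 in each subunit, and 10 of the 14 kept their call. The medians stayed at -0.28 and -0.24, Exosc8 at -1.14, and calls over all names went from 5439 to 5633.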
